A study of Mus musculus with 12 samples.

Results

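NF-kB is a family of transcription factors that dimerise from 5 subunits and are held in check by inhibitor proteins, many of which NF-kB itself induces. The genes described here are the 5 subunit genes (Nfkb1, Nfkb2, Rel, Rela and Relb), 4 genes of the IkB inhibitor family (Nfkbia, Nfkbib, Nfkbie and Nfkbiz) and Tnfaip3, which encodes the ubiquitin-editing inhibitor A20. They were taken by gene symbol, from a list drawn up with earlier results of these data known, so their counts are not those of a blind choice. They are 10 of the 26699 genes in the count files, and all 10 were among the 11927 genes with enough counts to be tested. The study asked how the sensory neuropeptide CGRP (calcitonin gene-related peptide) acts on macrophages of the mouse joint lining, the synovium.

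The donors were wild-type mice, C57BL/6 in the labels and of C57BL/6J background in the study's methods. The CGRP groups come from joint tissue exposed ex vivo to 100 nM of the peptide for 4 h. The control libraries are titled Healthy in the labels, and were taken to be the tissue given vehicle in the study's methods. IAIE is the labels' name for sorted macrophages with MHC class II but no CD11c, and CD11c their name for those with both. The 4 groups, IAIE Control, IAIE CGRP, CD11c Control and CD11c CGRP, held 3 bulk RNA-seq libraries each. The labels do not say whether the libraries came from separate mice or pools, nor how old the mice were, so p-values measure the spread between these libraries, which may be partly technical.

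In resting cells NF-kB dimers sit in the cytoplasm, bound by IkB proteins that mask their nuclear import signals. Kinases downstream of Toll-like, IL-1 and TNF receptors mark IkB for destruction and the freed dimers enter the nucleus, where they switch on cytokine, chemokine and survival genes. The same dimers restore IkBα, IkBε and A20, which closes the loop, and in macrophages this loop shapes how long an inflammatory response lasts. RelA, c-Rel and RelB carry the domains that activate transcription, whereas p50 and p52, cut from the products of Nfkb1 and Nfkb2, lack them and act mostly as dimer partners.

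Because several of these genes are regulated by NF-kB, the stretches of DNA upstream of their starts are shown first. RefSeq promoter sequences on build GRCm38.p6, which is mm10, were at hand for 7 of the 10 genes, Nfkb2, Rel, Rela, Nfkbia, Nfkbib, Nfkbie and Tnfaip3, in 10 windows, since Nfkb2 has 3 starts and Tnfaip3 has 2. The 250 bases before the start were searched on both strands for the 10-base NF-kB consensus. It was found in 7 of the 10 windows and upstream of 5 of the 7 genes, namely Nfkb2, Rel, Nfkbia, Nfkbie and Tnfaip3, whereas 7.25% of 32851 mouse promoter windows of that length held it. The 30 bases around one match of each of these genes follow, 5′ to 3′ on the strand of the gene, with the matching stretch in capitals.
Rel: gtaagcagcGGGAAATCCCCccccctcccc
Nfkb2: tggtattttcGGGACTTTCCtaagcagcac
Nfkbia: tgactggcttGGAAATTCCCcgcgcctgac
Nfkbie: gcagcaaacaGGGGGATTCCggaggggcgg
Tnfaip3: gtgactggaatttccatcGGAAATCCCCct

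The Rel window lies at chr11:23771041-23771070 on the minus strand and its match ends 82 bases before the RefSeq start. The Nfkb2 window, at chr19:46305695-46305724 on the plus strand, belongs to the start farthest downstream and its match ends 216 bases before that start. The Nfkbia window lies at chr12:55492657-55492686 on the minus strand, with the match ending 20 bases upstream. The Nfkbie window, at chr17:45555584-45555613 on the plus strand, has its match ending 97 bases upstream. The Tnfaip3 window lies at chr10:19015411-19015440 on the minus strand, and its match ends 3 bases from the RefSeq start. The Rel, Nfkbia and Nfkbie windows lie outside the annotated exons of those genes. Of the 250 bases before the start, 234 are annotated exon of the gene for the Nfkb2 start shown and 110 for the Tnfaip3 start shown. For the other 2 starts of Nfkb2 they are 250 and 0. The full cAMP response element TGACGTCA, the letters bound by CREB downstream of the CGRP receptor, was in 0 of the 10 windows and in 1.55% of all windows. Its first 5 letters, TGACG, were in 5 of the 10 windows, those of Rel, Nfkbib, Tnfaip3 and 2 starts of Nfkb2, against 17.8% of all. A match describes letters only and does not show that a factor bound there.

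All values below are read counts scaled to a common library size (CPM, normalised by TMM), given by library in the order of replicates 1 to 3. Log2 fold changes are given with their standard error (SE), and a gene is counted as past the threshold at an adjusted p under 0.05 in edgeR's quasi-likelihood test, with Benjamini-Hochberg adjustment over the 11927 genes tested. The comparisons share libraries, so their values for 1 gene are not independent of each other. Library totals ranged from 2127191 to 5649698 counts, and the 10 genes had between 219 and 5988 counts in each library, so none was near the limit of detection. Totals were 3169953, 3310825 and 2127191 in IAIE Control and 4009081, 4506849 and 5364559 in IAIE CGRP libraries, without overlap. Those of the CD11c groups overlapped. The part of library depth in the changes was not tested.

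The labels were checked against marker genes. Itgax, which encodes CD11c, had 6.19 ± 4.76 CPM (SD, n = 3) in IAIE Control and 237 ± 29 CPM in CD11c Control libraries, and all 10 macrophage markers were detected in each group. H2-Ab1, an MHC class II gene, had 3896 ± 387 and 10594 ± 886 CPM in the same groups. H2-Ab1 fell to 2332 ± 243 CPM in IAIE CGRP (log2 fold change -0.74 ± 0.11, edgeR adjusted p 3.16e-04) and to 6693 ± 508 CPM in CD11c CGRP libraries (-0.66 ± 0.11, 5.74e-04). Itgax fell to 115 ± 7.33 CPM in CD11c CGRP (-1.03 ± 0.30, 0.0288) and was 5.38 ± 3.94 CPM in IAIE CGRP libraries. The summed level of 8 dendritic cell markers was 91.3 to 173 CPM in IAIE libraries and 634 to 775 CPM in CD11c libraries, with Itgae at 0 in CD11c Control. Summed macrophage markers ran from 8907 to 12206 CPM in IAIE Control, 7765 to 9591 in IAIE CGRP, 6452 to 8357 in CD11c Control and 4411 to 5680 in CD11c CGRP libraries. The sum of 10 fibroblast markers reached 1561 CPM in IAIE Control 2 and 2206 CPM in IAIE CGRP 1 against 359 to 685 CPM in the other IAIE libraries, and it ran from 207 to 277 CPM in CD11c Control and from 467 to 771 CPM in CD11c CGRP libraries. The sum of the chondrocyte markers, of which 5 of 6 were in the count files, was 413 CPM in CD11c CGRP 2 and at most 58.9 CPM elsewhere. It was lower in every IAIE CGRP library (1.32 to 5.29 CPM) than in every IAIE Control library (7.74 to 19.2 CPM). It was higher in every CD11c CGRP library (9.07 CPM or more) than in every CD11c Control library (1.87 to 6.53 CPM). Only 2 of these 5 chondrocyte genes had enough counts to be tested, and Chad was at 0 in IAIE CGRP, so the low sums rest on few reads. The sum of 6 B cell markers was lower in every IAIE CGRP library, at 27 to 51 CPM, than in every IAIE Control library, at 65.8 to 125 CPM, and was 9.44 to 15.9 CPM in CD11c Control and 6.41 to 11.5 CPM in CD11c CGRP libraries. The sum of 7 endothelial markers was higher in every IAIE CGRP library (25.8 to 37.2 against 12.7 to 19.2 CPM) and that of 6 mural cell markers in every CD11c CGRP library (54.5 to 357 against 26 to 33.3 CPM). Sums of 7 neutrophil markers, 6 mast cell markers and the 4 of 6 T cell markers in the files overlapped between CGRP and control libraries in both subsets. In bulk RNA a smaller share of cells of a type and less RNA per cell cannot be told apart.

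CGRP lowered the transcripts of 3 subunits in IAIE cells. Nfkb1 fell by 48.5%, Rel fell by 38.1% and Nfkb2 fell by 33.4%, and the other 7 genes did not pass the threshold. These 3 of 10 genes, all lower, stand against 3.89% of all tested genes that fell and 9.21% that passed in either direction. The median log2 change over the 10 genes was -0.09, and over all tested genes -0.02.

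Nfkb1, which encodes the p105 precursor of p50, read 852, 887 and 899 CPM in IAIE Control and 450, 483 and 427 CPM in IAIE CGRP libraries. Every CGRP library lay well below every control library. The log2 fold change was -0.96 ± 0.11 (SE), with a 95% interval from -1.19 to -0.72 and an edgeR adjusted p of 1.78e-05. The gene lies at chr3:135584655-135691547 on the minus strand.

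Rel encodes c-Rel, the subunit most restricted to blood cells. It read 289, 224 and 304 CPM in IAIE Control and 159, 167 and 180 CPM in IAIE CGRP libraries, without overlap. Its log2 fold change was -0.69 ± 0.14, from -0.98 to -0.40, with an edgeR adjusted p of 0.00259.

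Nfkb2, whose p100 product both inhibits RelB and yields p52, read 307, 333 and 291 CPM in IAIE Control and 197, 240 and 183 CPM in IAIE CGRP libraries. The groups did not overlap, and the log2 fold change was -0.59 ± 0.13, from -0.86 to -0.31, with an edgeR adjusted p of 0.0069, a call that was lost at 0.104 without IAIE Control 2 and IAIE CGRP 1 together. Of its exon bases, 18.1% are also annotated to genes on the opposite strand, mainly AC114539.1 and Psd, and whether counting used strand is not given in the sources used here.

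Rela and Relb did not pass. Rela, the main activating subunit of the canonical pathway, read 157, 160 and 169 CPM and then 140, 157 and 142 CPM with CGRP. Its log2 fold change was -0.14 ± 0.14, from -0.43 to 0.14. Relb, the activating subunit of the non-canonical pathway, read 129, 119 and 98 CPM and then 124, 119 and 109 CPM. Its interval ran from -0.30 to 0.34 on the log2 scale. A change of the size seen in Nfkb1 lies outside both intervals.

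Of the 5 inhibitors 0 passed the threshold in IAIE cells in edgeR. At an unadjusted p under 0.05, met by 21.8% of all tested genes, the count was 1, Nfkbia. DESeq2, which called 13.5% of the genes it gave an adjusted p, also called 1, and limma-voom, which called 7.9%, called 0. Nfkbia, which encodes IkBα, read 608, 600 and 627 CPM in control and 772, 697 and 726 CPM in CGRP libraries, so that the groups did not overlap and CGRP was higher. The log2 fold change of 0.26 ± 0.10 had an edgeR adjusted p of 0.14 and did not pass, and in DESeq2 the adjusted p was 0.0295. Libraries without overlap were found in the higher direction for 12.9% of all tested genes and in the lower direction for 12%, which is the background for this gene and for the 4 genes that lay lower without overlap. The fourth of those, after the 3 subunits, was Nfkbiz.

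Nfkbiz encodes the nuclear IkBζ, which helps p50 dimers switch on a set of secondary response genes. It read 567, 523 and 517 CPM in IAIE Control and 471, 470 and 442 CPM in IAIE CGRP. The log2 fold change was -0.22 ± 0.12 with an edgeR adjusted p of 0.312. Tnfaip3 read 791, 945 and 923 CPM and then 904, 1052 and 909 CPM, with overlapping groups and a log2 fold change of 0.11 ± 0.13. The libraries also overlapped for Nfkbie, encoding IkBε, at 105, 128 and 118 CPM and then 116, 140 and 138 CPM. Nfkbib, encoding IkBβ, read 276, 257 and 194 CPM and then 218, 295 and 199 CPM. Its interval, from -0.36 to 0.30, was the widest of the 5 inhibitors, and 16.4% of its exon bases are shared with Ccer2 and Sirt2 on the opposite strand.

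The 2 IAIE libraries with the most fibroblast transcripts were left out singly and together. Without IAIE CGRP replicate 1 the log2 fold changes were -0.94 for Nfkb1, -0.64 for Rel and -0.54 for Nfkb2, with edgeR adjusted p-values of 1.52e-04, 0.017 and 0.038. Without IAIE Control replicate 2 they were -0.93, -0.79 and -0.51, with adjusted p-values of 2.10e-04, 0.00195 and 0.0449. Without both, a fit added after seeing the marker sums, they were -0.92, -0.75 and -0.48, with edgeR adjusted p-values of 9.70e-04, 0.00802 and 0.104, so that the call for Nfkb2 was lost. The part of B cell, endothelial, chondrocyte and fibroblast transcripts in these changes was not tested.

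**Figure D1:**
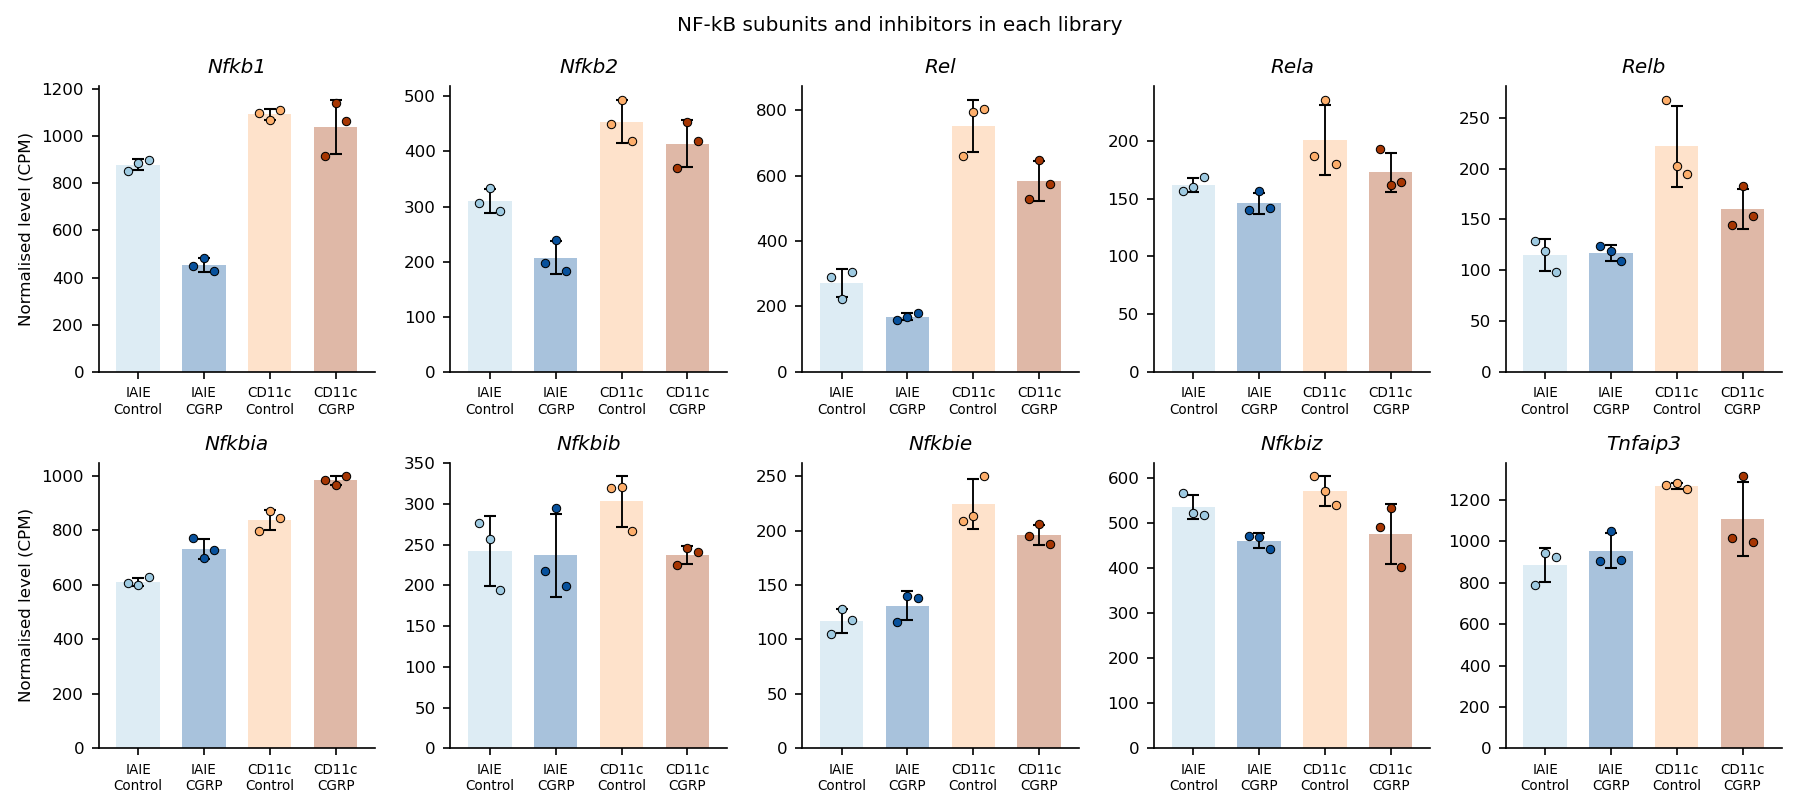
Normalised level in CPM (y axis, from 0) of the 10 genes in the 4 groups (x axis). Points are the 3 libraries of a group, bars their mean and error bars the SD. IAIE CGRP libraries sit between 427 and 483 CPM for Nfkb1 against 852 to 899 CPM in IAIE Control, whereas Rel is highest in CD11c Control.

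In CD11c cells 0 of the 10 genes passed the threshold with CGRP in edgeR, where 10.9% of all tested genes passed. At an unadjusted p under 0.05 the count was 5, where 22.1% of all tested genes met it. DESeq2 and limma-voom each called 2 of the 10 genes, Rel and Relb, against 11.6% and 13% of all genes they gave an adjusted p. The estimate was negative for 9 of the 10 genes, with a median log2 change of -0.21 against 0.00 over all tested genes. In 5 genes, Rel, Relb, Nfkbib, Nfkbie and Nfkbiz, every CGRP library lay below every control library, against 13.8% of all tested genes. Nfkbia alone lay higher without overlap, against 15.4%.

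Relb stood closest to the threshold. It read 268, 203 and 195 CPM in CD11c Control and 145, 183 and 153 CPM in CD11c CGRP, a log2 fold change of -0.47 ± 0.15 with an interval from -0.78 to -0.15. The edgeR adjusted p was 0.0529, and it was under 0.05 in 6 of the 8 other fits. It was also under 0.05, at 0.0413 to 0.0485, without IAIE Control 1 or 3, CD11c Control 2 or 3, or CD11c CGRP 2. CD11c Control replicate 1 held the highest level, and the estimates over the 12 fits without 1 library ran from -0.58 to -0.32.

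Rel read 659, 794 and 804 CPM in CD11c Control and 530, 649 and 574 CPM in CD11c CGRP. The log2 fold change was -0.37 ± 0.13, from -0.65 to -0.08, with an edgeR adjusted p of 0.094. Nfkb1 did not pass in this subset, at 1099, 1067 and 1112 CPM against 914, 1140 and 1065 CPM. Its log2 fold change was -0.07 ± 0.11 and its interval, from -0.30 to 0.16, did not reach the fall in IAIE cells. Nfkb2 read 450, 494 and 418 CPM and then 369, 454 and 419 CPM, with a log2 fold change of -0.13 ± 0.13. Rela read 187, 236 and 180 CPM and then 193, 162 and 165 CPM, with overlapping groups.

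Among the inhibitors in CD11c cells, Nfkbia again lay higher with CGRP, at 797, 870 and 847 CPM and then 983, 968 and 999 CPM. The log2 fold change was 0.23 ± 0.10 with an edgeR adjusted p of 0.186. Nfkbib, Nfkbie and Nfkbiz lay lower, with log2 fold changes of -0.35 ± 0.16, -0.19 ± 0.13 and -0.26 ± 0.12 and edgeR adjusted p-values of 0.186, 0.435 and 0.196. Tnfaip3 read 1274, 1280 and 1252 CPM in control and 1014, 1315 and 997 CPM in CGRP libraries, where replicate 2 stayed above the controls. That library also held the most chondrocyte transcripts, and without it the log2 fold change of Relb was -0.57 and that of Rel -0.45. The part of the stromal, mural and dendritic cell transcripts in these changes was not tested.

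**Figure D2:**
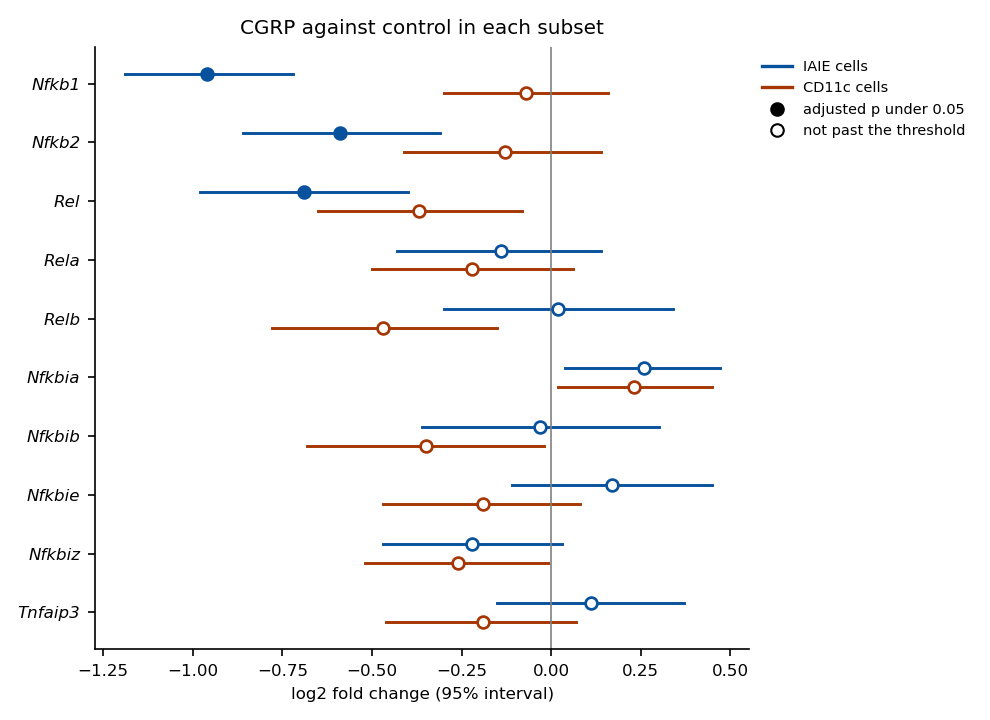
Log2 fold change of CGRP against control (x axis) for each gene (y axis) in IAIE cells (blue) and CD11c cells (brown), with 95% intervals, filled where the adjusted p was under 0.05. Only Nfkb1, Nfkb2 and Rel in IAIE cells are filled, and Nfkbia is above 0 in both subsets.

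Whether the 2 subsets differed in their change was tested as an interaction, the log2 change in CD11c cells minus that in IAIE cells. Nfkb1 alone of the 10 genes passed, among 0.151% of all tested genes that did. Its interaction was 0.88 ± 0.16, from 0.55 to 1.21, with an edgeR adjusted p of 0.018. The 8 other fits gave 0.81 to 0.89, all past the threshold, and leaving out single libraries gave 0.81 to 0.93, with adjusted p-values from 0.0138 to 0.108 and 5 of 12 past the threshold. It was lost without IAIE Control 2 (0.0717), CD11c Control 1 (0.0541), 2 (0.108) or 3 (0.0968), IAIE CGRP 2 (0.0528) or 3 (0.0586), or CD11c CGRP 3 (0.0596), all edgeR adjusted p-values.

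For Nfkb2 and Rel, which fell in IAIE cells, a difference between the subsets was not shown. Their interactions were 0.45 ± 0.19 and 0.33 ± 0.19, with edgeR adjusted p-values of 0.473 and 0.694 and intervals from 0.07 to 0.84 and from -0.08 to 0.73. Relb pointed the other way, at -0.49 ± 0.22, with an adjusted p of 0.53. For Nfkbia the interaction was -0.03 ± 0.15, from -0.33 to 0.28.

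Ratios of raw counts within a library do not depend on how libraries are scaled. Nfkb1 counts per Rela count were 5.44, 5.54 and 5.33 in IAIE Control and 3.22, 3.07 and 3 in IAIE CGRP libraries. In CD11c cells they were 5.87, 4.51 and 6.16 in control and 4.74, 7.04 and 6.47 in CGRP libraries, which overlap. The ratio of Nfkbia, the inhibitor, to Nfkb1 was 0.714, 0.676 and 0.697 in IAIE Control and 1.71, 1.44 and 1.70 in IAIE CGRP. In CD11c cells it was 0.725, 0.815 and 0.761 in control and 1.08, 0.849 and 0.937 with CGRP, again higher in every CGRP library. Rel per Rela read 1.85, 1.4 and 1.8 in IAIE Control and 1.13, 1.06 and 1.26 in IAIE CGRP, while the CD11c groups, at 3.36 to 4.46 and 2.75 to 4.01, overlapped. These ratios are descriptions, without a test.

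**Figure D3:**
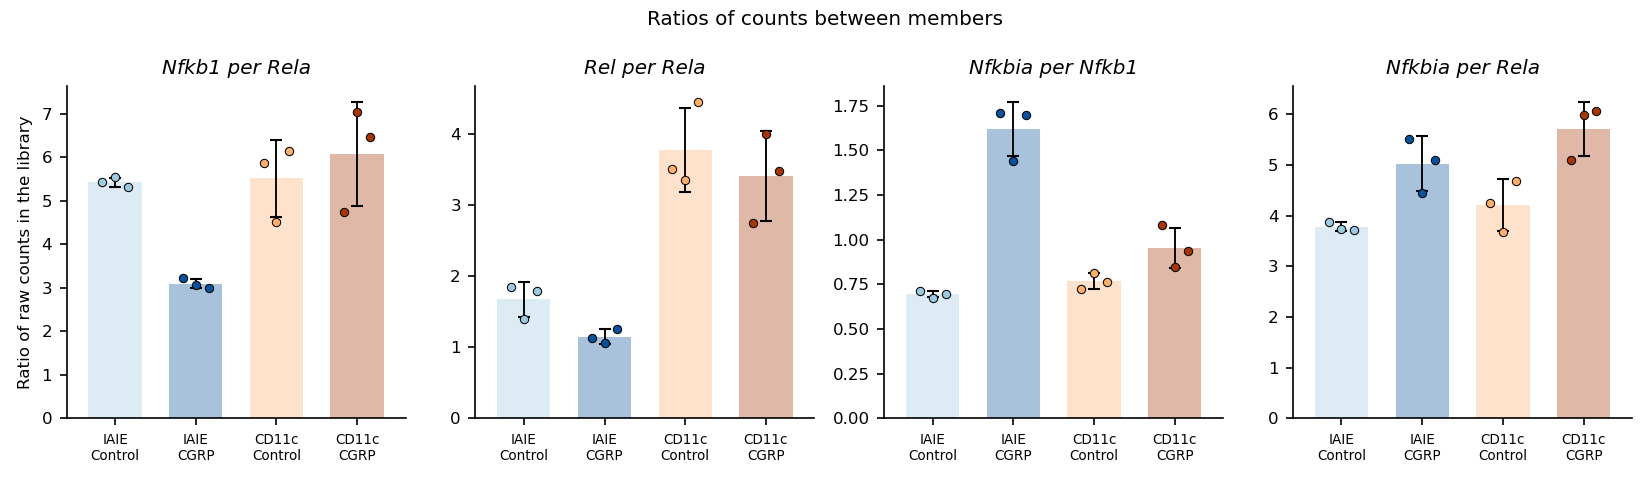
Ratio of raw counts of 2 genes within each library (y axis, from 0) in the 4 groups (x axis), with points for libraries, bars for means and error bars for the SD (n = 3). Nfkbia per Nfkb1 is 0.676 to 0.714 in IAIE Control and 1.44 to 1.71 in IAIE CGRP, and Nfkb1 per Rela overlaps between the CD11c groups but not between the IAIE groups.

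The 2 subsets differed in these genes before any CGRP. Among control libraries 6 of the 10 genes were past the threshold, all higher in CD11c cells, where 21.2% of all tested genes passed and 10.2% were higher. They were Rel, Relb, Nfkb2, Nfkbie, Tnfaip3 and Nfkbia. All 10 estimates were positive, with a median log2 difference of 0.49 against -0.02 over all tested genes. In 8 genes every CD11c library lay above every IAIE library, against 16.7% of all tested genes.

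Rel differed most of the 10 genes, at 659, 794 and 804 CPM in CD11c Control against 289, 224 and 304 CPM in IAIE Control. The log2 difference was 1.47 ± 0.14, from 1.18 to 1.76, which is 2.76-fold, with an edgeR adjusted p of 4.18e-07. Relb, at 195 to 268 CPM against 98 to 129 CPM, and Nfkbie, at 209 to 250 CPM against 105 to 128 CPM, both differed by 0.94 on the log2 scale, with SEs of 0.15 and 0.13 and edgeR adjusted p-values of 1.92e-04 and 4.76e-05. Nfkb2 was higher by 0.55 ± 0.13, Tnfaip3 by 0.52 ± 0.13 and Nfkbia by 0.45 ± 0.10, with edgeR adjusted p-values of 0.00515, 0.00559 and 0.00355.

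Of the other 4 genes, Nfkb1 had a log2 difference of 0.31 ± 0.11 with an edgeR adjusted p of 0.0514, and it passed in 7 of the 9 other fits and, at 0.0177 to 0.0465, without CD11c Control 2, IAIE CGRP 3 or any 1 CD11c CGRP library. Rela had 0.32 ± 0.14 and an adjusted p of 0.109, with 180 to 236 CPM against 157 to 169 CPM and no overlap. Nfkbib and Nfkbiz had overlapping groups and log2 differences of 0.32 ± 0.16 and 0.09 ± 0.12. The CD11c libraries also carried the higher dendritic cell sums given above, and their part in these differences was not tested.

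Among CGRP libraries, which are other libraries than the controls, 6 of the 10 genes were again past the threshold and higher in CD11c cells, where 16.9% of all tested genes passed and 8.36% were higher. Rel was higher by 1.79 ± 0.14 on the log2 scale, or 3.47-fold, with an edgeR adjusted p of 3.18e-08. Nfkb1 was higher by 1.20 ± 0.11 (adjusted p 3.68e-07), at 914 to 1140 CPM against 427 to 483 CPM. Nfkb2 was higher by 1.0 ± 0.13 (adjusted p 1.98e-05), which is 2-fold.

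Nfkbie, Nfkbia and Relb were higher by 0.58 ± 0.13, 0.43 ± 0.10 and 0.45 ± 0.15, with edgeR adjusted p-values of 0.00401, 0.00615 and 0.0489. The call for Relb was lost in 3 other fits, at 0.053 to 0.0938. It was also lost, at 0.0518 to 0.208, without IAIE Control 2 or 3, CD11c Control 2 or 3, any 1 IAIE CGRP library, or CD11c CGRP 2 or 3, the highest being without CD11c CGRP 2. Tnfaip3, past the threshold among controls, had a log2 difference of 0.21 ± 0.12 with an adjusted p of 0.29. The other genes that did not pass were Rela, Nfkbib and Nfkbiz, at 0.24 ± 0.13, 0.00 ± 0.16 and 0.05 ± 0.12. In 7 genes the libraries did not overlap, all higher in CD11c cells, against 17.8% of all tested genes.

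**Figure D4:**
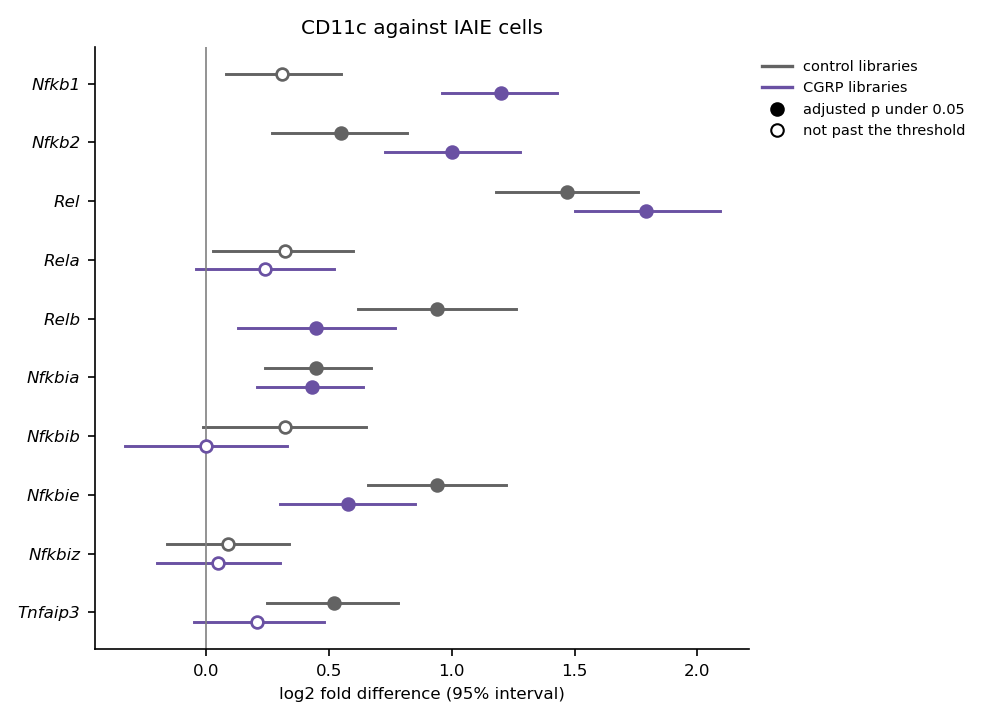
Log2 difference of CD11c minus IAIE cells (x axis) for each gene (y axis) among control libraries (grey) and CGRP libraries (purple), with 95% intervals, filled where the adjusted p was under 0.05. Rel is farthest to the right in both, at 1.47 and 1.79, and Nfkb1 moves from 0.31 to 1.20.

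To order the genes by level, CPM were divided by the length of the longest coding transcript in GENCODE, in kb. Nfkbia was the most abundant in every group, at 388, 464, 531 and 623 CPM per kb in IAIE Control, IAIE CGRP, CD11c Control and CD11c CGRP (means of 3 libraries). In IAIE Control Nfkb1 (214 CPM per kb) and Tnfaip3 (200) came next and overlapped each other. Nfkbiz (130) and Nfkbib (118) also overlapped, and below them stood Nfkb2 (80.6), Rela (59.6), Relb (52.2), Nfkbie (48.1) and Rel (36.5).

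With CGRP the order of the IAIE cells changed at Nfkb1, which stood at 110 CPM per kb, overlapping Nfkbiz at 112 and Nfkbib at 115 and below Tnfaip3 at 216. On this length Rel was the lowest of the 10 genes in both IAIE groups, at 36.5 and 22.6 CPM per kb, without overlap with its neighbour in that order. In CD11c Control Rel, at 101 CPM per kb, overlapped Relb at 100, and Rela was lowest at 74.1, overlapping Nfkbie at 92.0. Nfkb1 came after Nfkbia and Tnfaip3 in CD11c Control, at 265 CPM per kb, and overlapped Tnfaip3 in CD11c CGRP, at 253. The order depends on the length used. The annotated exons of Nfkb1 add up to 12061 bases and its longest coding transcript has 4117, and by all exons its mean in IAIE Control was 72.9 CPM per kb. By all exons Relb, not Rel, was lowest in IAIE Control, at 29.7 CPM per kb and overlapping Rel, and Relb, not Rela, was lowest in CD11c Control, at 57.1 CPM per kb and overlapping Rela. Nfkbia was highest and, in IAIE CGRP, Rel lowest by either length.

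The nuclear IkB relatives Bcl3 and Nfkbid, not among the 10 genes, were followed beside them. Bcl3, a partner of p50 and p52 dimers, read 136, 160 and 124 CPM in IAIE Control and 92.9, 93.3 and 94.7 CPM in IAIE CGRP. It fell by 0.58 on the log2 scale (SE 0.14, edgeR adjusted p 0.0115), and in CD11c cells by 0.44 (SE 0.14, adjusted p 0.0485). The IAIE call was lost without IAIE Control 2, at an adjusted p of 0.0839, or without both libraries high in fibroblast transcripts, at 0.149, and the CD11c call was lost without any 1 of the 6 CD11c or 3 IAIE CGRP libraries, with adjusted p-values up to 0.181. Nfkbid, encoding IkBNS, did not pass with CGRP, at -0.23 ± 0.16 in IAIE and -0.23 ± 0.15 in CD11c cells, but was higher in CD11c than in IAIE controls by 0.71 ± 0.16 (adjusted p 0.00322).

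Lists of other genes of the pathway were examined around the 10 genes, and some genes stand in 2 lists. Among 31 kinases and adaptors that lead to NF-kB, CGRP raised 1 and lowered 1 in IAIE cells and raised 2 in CD11c cells, with median log2 changes of 0.12 and -0.03. That is a share of 6.45% past the threshold in each subset, against 9.21% and 10.9% of all tested genes. Ikbkg, which encodes NEMO, the regulatory subunit of the IkB kinase, rose from 108 ± 21.5 to 289 ± 41 CPM in IAIE cells and from 147 ± 12.9 to 284 ± 56.5 CPM in CD11c cells. These are log2 fold changes of 1.43 ± 0.17 and 0.95 ± 0.17 with edgeR adjusted p-values of 2.19e-05 and 7.39e-04, and 5.15% of its exon bases are shared with G6pdx on the opposite strand. The adaptor Traf5 fell by 0.80 in IAIE cells (SE 0.24, adjusted p 0.039) (log2 scale), a call that was lost in 3 other fits and without any 1 library other than CD11c Control 1, with adjusted p-values up to 0.19, and at 0.0947 without both libraries high in fibroblast transcripts. Rnf31, the catalytic subunit of the linear ubiquitin ligase, rose by 0.84 ± 0.21 in CD11c cells (adjusted p 0.0117), and did not pass without CD11c Control 1 (0.0579) or CD11c CGRP 2 (0.0662).

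Among 22 other IkB relatives and inhibitors, 1 rose and 3 fell in IAIE cells and 2 rose and 2 fell in CD11c cells, with median log2 changes of -0.11 and -0.13. N4bp1, an inhibitor of cytokine-inducing signalling, rose by 1.25 ± 0.20 in IAIE and 0.93 ± 0.20 in CD11c cells (edgeR adjusted p 4.33e-04 and 0.00334). Tnip3, an A20-binding protein, fell by 1.11 on the log2 scale in IAIE and fell by 1.27 in CD11c cells (SE 0.17 in both, edgeR adjusted p 3.41e-04 and 3.17e-05). The share of the list past the threshold was 18.2% in each subset, against 9.21% and 10.9% of all tested genes.

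Of 42 textbook NF-kB target genes 39 were tested, and they moved in both directions. In IAIE cells 8 rose and 6 fell with a median of -0.06, and in CD11c cells 11 rose and 4 fell with a median of 0.03. These are shares of 35.9% and 38.5% past the threshold, against 9.21% and 10.9% of all tested genes. Cxcl3, a neutrophil chemokine, rose in IAIE cells from 479 ± 49.7 to 1599 ± 243 CPM (log2 1.74 ± 0.16, edgeR adjusted p 1.59e-06). Cxcl3 was also past the threshold and higher in CD11c cells. Nos2 rose by 3.89 ± 0.66 (log2) in IAIE and 5.18 ± 0.72 in CD11c cells (edgeR adjusted p 6.97e-04 and 5.96e-05). Its control means were low, at 2.51 and 1.45 CPM, and limma-voom did not call it in IAIE cells (adjusted p 0.0915). Ccl5 rose by 1.85 ± 0.40 and 1.92 ± 0.39 (edgeR adjusted p 0.00538 and 0.0025). Its IAIE call was lost without IAIE CGRP 2 (0.0509). Cd83, a surface marker of activated antigen-presenting cells, fell from 704 ± 172 to 410 ± 10.9 CPM in IAIE cells and from 1013 ± 45.7 to 689 ± 43.7 CPM in CD11c cells, with edgeR adjusted p-values of 0.00108 and 0.0121. Ccl2, a monocyte chemokine, fell in IAIE cells by 0.79 on the log2 scale (SE 0.19, adjusted p 0.0125), and did not pass without IAIE Control 2 (0.075), IAIE CGRP 3 (0.0545) or both libraries high in fibroblast transcripts (0.131).

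Of the 23 receptors 1 rose in IAIE cells, and 1 rose and 1 fell in CD11c cells, with medians of -0.16 and 0.06 and shares of 4.35% and 8.7% past the threshold, below the 9.21% and 10.9% of all tested genes. The gene that rose in both was Tlr4, the endotoxin receptor, by 0.83 ± 0.18 and 1.16 ± 0.19 (edgeR adjusted p 0.00614 and 2.76e-04). Of 9 ligands 6 were tested, of which 1 rose in IAIE cells and 2 rose in CD11c cells, with medians of 0.16 and -0.42 and shares of 16.7% and 33.3%. Il1a, encoding IL-1α, rose by 1.01 ± 0.28 and 1.07 ± 0.27 (edgeR adjusted p 0.0265 and 0.0145). The IAIE call was lost in limma-voom (adjusted p 0.141). It was also lost without any 1 IAIE Control library, IAIE CGRP 2 or IAIE CGRP 3, with edgeR adjusted p-values up to 0.215. The CD11c call was lost without CD11c Control 2, CD11c Control 3 or CD11c CGRP 2, with edgeR adjusted p-values up to 0.104. Of the 18 genes called for the interaction over all tested genes, 1, Nfkb1, was among the 10 genes and these lists.

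Between the subsets in control libraries, 7 of the 31 kinases and adaptors passed, all higher in CD11c cells, a share of 22.6% against 21.2% of all tested genes. Map3k14, which encodes NIK, the kinase of the non-canonical pathway that processes p100, was higher by 2.38 ± 0.19 (edgeR adjusted p 5.04e-08). Traf1 and Malt1 were higher by 2.14 ± 0.16 and 1.86 ± 0.14 (adjusted p 3.43e-08 and 2.89e-08). Of the 22 other IkB relatives and inhibitors 4 were higher and 1 lower (22.7% past the threshold), and of the 23 receptors 2 were higher and 8 lower (43.5%). Of the 39 targets 13 were higher and 11 lower in CD11c cells (61.5%), and of the 6 ligands 1 was higher and 2 lower (50%). Il1b stood at 3268 ± 255 CPM against 707 ± 124 CPM in IAIE cells, whereas Tnf stood at 113 ± 13.2 against 395 ± 16.3 CPM.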

How the data were processed

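RNA from sorted macrophages was made into libraries with a stranded total RNA kit for low input and read in pairs. The authors trimmed the reads, aligned them with HISAT2 to the mouse build mm10, and used featureCounts to obtain counts for each gene. The deposited values are raw counts, not normalised; the versions, the annotation and the strand setting are not given in the sources used here. Of a table of the whole series, 6 further columns were left out, as the labels tie them to no sample. Whether duplicate reads were removed is not given in the sources used here, and no 2 libraries were identical.

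From the counts, genes were kept with edgeR 4.0.16 (R 4.3.3) filterByExpr by group (minimum count 10, minimum total 15). After TMM scaling all 12 libraries were fitted together by quasi-likelihood, 1 mean for each group (common biological coefficient of variation 0.256), and 5 contrasts were tested, with p-values adjusted over all tested genes. The authors' own design used DESeq2 with batches removed by sva, a combination that was not run here. Alternatives were DESeq2 without sva, the edgeR fit with 1 surrogate variable from sva, RLE and upper-quartile scaling, and no filter. Further ones were replicate blocks, the compared libraries alone, limma-voom (limma 3.58.1) with quality weights and leaving out each library. The script was checked on simulated data. Gene positions and lengths are from GENCODE M21. The 10 genes, the pathway and marker lists and the rule for naming genes were chosen with earlier results of these data known. That rule names all 10 genes, Bcl3, Nfkbid, the sort markers and up to 3 genes each way per list and contrast with the largest change past the threshold (mean of at least 5 CPM, groups without overlap); of these a selection is described.

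No label ties replicate numbers to explants. As a check, each library's deviation from its group mean was correlated over 5411 genes with that of the library of equal number in another group. IAIE CGRP and CD11c CGRP libraries gave 0.33, 0.107 and 0.178 for equal numbers, and -0.251 to 0.0793 for unequal numbers. In the other comparisons not every equal number reached 0.1, and unequal numbers gave up to 0.201 (CD11c Control 3 with CD11c CGRP 2). The numbers were therefore only assumed to pair the CGRP libraries, which these values do not establish.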

Additional observations from a re-analysis of the deposited data

Results flagged for a closer look

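The CGRP effect on Nfkb1 differed between the subsets, by an interaction of 0.88 on the log2 scale (SE 0.16, edgeR adjusted p 0.018). All 3 IAIE CGRP libraries, at 427 to 483 CPM, lay below all 3 IAIE Control libraries, at 852 to 899 CPM, whereas the CD11c groups overlapped, at 914 to 1140 CPM with CGRP and 1067 to 1112 CPM without. The call was lost without any 1 of 7 libraries (adjusted p 0.0528 to 0.108), while the estimate stayed between 0.81 and 0.93.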

How the results depend on the processing

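Over the 10 genes and 5 contrasts, the other fits gave 420 values, of which 393 kept direction and side of the threshold, 3 fell short of it, 16 newly passed and 8 changed sign. Leaving out single libraries gave 600 values, with 559, 16, 10 and 15. In IAIE cells 3 genes passed in each fit that left out 1 library, 2 passed without both IAIE libraries high in fibroblast transcripts (an alternative chosen after seeing the data), and DESeq2 added Nfkbia. In CD11c cells the count of 0 became 1 (Relb) with RLE or upper-quartile scaling, the replicate block or the compared libraries only, and 2 (Rel and Relb) with DESeq2 or limma-voom; without single libraries it was 0 to 1. The interaction count was 0 to 1, the control subset count 6 to 7 and the CGRP subset count 5 to 6 without single libraries. The cause of these changes was not tested.

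With the replicate number as a block, Relb in CD11c cells gave -0.46 (edgeR adjusted p 0.034) and Nfkb1 between control subsets 0.31 (0.0378), or 0.0241 with treatment and number as the block. Blocks changed no other call among the 10 genes, and the 6 calls between CGRP libraries, where the numbers were assumed to pair, were kept with that pairing.

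Sign changes were small. Relb in IAIE cells was -0.03 with upper-quartile scaling. Nfkbib in IAIE cells was 0.04 without the filter, 0.01 in limma-voom and 0.09 without both libraries high in fibroblast transcripts, and between CGRP libraries it was -0.00 with RLE, the compared libraries, DESeq2 or the surrogate variable and -0.01 in limma-voom. The interaction of Nfkbid was -0.00 with RLE, -0.07 without the filter and -0.01 in DESeq2 or with the surrogate variable. For the values that changed sign in at least 1 fit without a library, the range over all 12 such fits was -0.05 to 0.12 for Relb and -0.21 to 0.09 for Nfkbib in IAIE cells, -0.11 to 0.19 for Nfkbib and -0.04 to 0.16 for Nfkbiz between CGRP libraries, and, for the interaction, -0.14 to 0.01 for Nfkbiz, -0.21 to 0.00 for Rela and -0.10 to 0.10 for Nfkbid.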

Other observations

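For each of the 10 genes, the tested gene whose level ran most alike over the 12 libraries was found by Pearson's r of log2(CPM + 1), leaving out the 10 genes, predicted and mitochondrial genes. The 12 points hold 4 groups and share their scaling, so these are descriptions. Among the subunits, Rel ran most like Wnt11, a secreted signal (r = 0.986), Nfkb2 like Sub1 (0.969), Relb like Cox7b (0.961), Nfkb1 like Mllt6 (0.957) and Rela like Nfkbid, the gene of IkBNS (0.901). Among the inhibitors, Nfkbie ran most like Dusp5, a phosphatase of ERK (0.981), Nfkbia like AA467197 (0.969), with the chemokine Ccl22 next at 0.961, Tnfaip3 like Aff1 (0.943), and Nfkbib and Nfkbiz like Sox12 and Rassf4 (both 0.906).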
